A study of Mus musculus with 18 samples.

Results

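Mouse bone marrow derived macrophages exposed to 100 nM dexamethasone for 24 h were compared with baseline cells on 6 of the 18 arrays of a time series. The members were chosen by title, as the 3 arrays of the 24 h group and the 3 baseline arrays, and each gene was read as the log2 of its deposited intensity. A gene with several probe sets was represented by the brightest, and 211 probe sets whose values ran in an evenly stepped series on baseline replicate 1 were left out on all arrays. Marrow of 10 week old male C57BL/6 mice, 3 in number, had been grown for 1 week in medium holding recombinant human CSF1 at 10000 U/ml and 10% serum, and the cells were replated with CSF1 and serum still present. The baseline group was taken before treatment, and the other groups of the series were exposed for 1, 2, 4 or 10 h. None of the 18 arrays held cells kept for 24 h without dexamethasone, so the effect of the steroid and that of a further day in culture cannot be told apart. The series text calls the arrays biological replicates, but no label ties a replicate number to a mouse or says whether marrow was pooled, so p-values measure the spread between these arrays, which may be partly technical.

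Dexamethasone is a synthetic glucocorticoid. It enters the cell and binds the glucocorticoid receptor, the product of Nr3c1, which waits in the cytoplasm in a complex with Hsp90 and its co-chaperones. The bound receptor moves into the nucleus, where dimers sit on a palindromic DNA element and switch on nearby genes, while receptor held by other factors such as AP-1 and NF-kappaB lowers the transcription of many inflammatory genes. In macrophages glucocorticoids are best known for damping cytokine output, for raising the uptake of dying cells through the receptor tyrosine kinase Mertk, and for raising Cd163, the receptor for haemoglobin bound to haptoglobin.

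The receptor's palindrome was looked for in the 250 bases before the start site of each gene, taken from RefSeq on build GRCm38.p6. Written as GNACA, any 3 bases and TGTNC, and searched on both strands, it was present in 0.358% of the 10621 promoters of tested genes, in 4 of 788 promoters of genes that rose at 24 h (0.508%) and in 2 of 568 of genes that fell (0.352%). The windows of 2 genes that rose are printed because they hold the element itself, with the palindrome in capitals. Map3k6, a MAP kinase kinase kinase gene, is at chr4:133240568-133240817 on the plus strand, with the match starting 181 bases before the start site. Sgk1, a serum and glucocorticoid regulated kinase gene, is at chr10:21993640-21993889 on the plus strand, with the match starting 188 bases before it.
Map3k6 promoter: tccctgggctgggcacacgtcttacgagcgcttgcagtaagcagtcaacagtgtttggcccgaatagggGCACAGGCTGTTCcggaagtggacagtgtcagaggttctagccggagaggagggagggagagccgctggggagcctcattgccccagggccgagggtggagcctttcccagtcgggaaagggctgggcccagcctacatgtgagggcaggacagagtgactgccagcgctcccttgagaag
Sgk1 promoter: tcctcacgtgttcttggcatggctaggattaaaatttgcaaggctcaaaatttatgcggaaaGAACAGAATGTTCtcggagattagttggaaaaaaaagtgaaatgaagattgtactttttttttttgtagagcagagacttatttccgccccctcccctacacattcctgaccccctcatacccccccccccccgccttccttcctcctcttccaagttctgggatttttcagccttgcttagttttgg
Map3k6 read 3.84, 3.87 and 3.37 at baseline and 5.54, 5.62 and 5.80 at 24 h, so the groups did not overlap and the baseline mean was below the background level of 3.86 log2. Its rise came to at least 3.46-fold over that level (adjusted p 6.04e-10). Sgk1 read 9.46, 9.62 and 9.47 at baseline and 10.18, 10.04 and 10.02 at 24 h, also without overlap, a rise of 0.56 ± 0.05 log2 (SE; adjusted p 2.48e-08). Map3k6 was the 1 match among 79 promoters of genes that rose by 1 log2 unit or more (1.27%). The other matches among changed genes were in Slc10a6 and Cfap298, which rose, and in Jund and 4930473O22Rik, which fell; these matched genes were named after their values were seen. The AP-1 element TGANTCA, searched the same way, was in 6.01% of all promoters of tested genes, in 8.5% of those of genes that rose and in 8.1% of those of genes that fell. A match describes the letters in a short window and is no evidence of binding.

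Array quality was alike in both groups with 1 exception. Replicates of a group correlated at 0.996 to 0.997 over 13190 tested genes, arrays of different groups at 0.991 to 0.992, and 72.9% to 74.7% of tested genes lay above background on each array, the rest being too dim to measure well. As a sign of RNA integrity, the Gapdh control probe set at the 3' end exceeded that at the 5' end by 0.06 ± 0.03 log2 (SD, n = 3) at baseline and 0.20 ± 0.03 at 24 h, and the Actb controls differed by 0.38 ± 0.02 and 0.43 ± 0.03. For both, an exact two-sided permutation test gave p = 0.1, the smallest that 3 against 3 arrays allow, and the part of this difference in the results was not tested. The cells matched their label: all 12 macrophage markers were above background, with a summed level of 15.02 to 15.06 log2 at baseline and 15.07 to 15.09 at 24 h (exact p 0.1). Most markers of other cells were at background, among them Cd3d, Cd8a, Cd79a, Ms4a1, Flt3 and Col1a1, but 2 of 11 T and NK cell markers were above it at baseline or 24 h (Cd3e at 4.78 and 4.61 log2, Cd4 at 4.41 and 4.63). So were 3 of 9 B cell markers (Cd79b at 5.51 and 5.17, Cd22 at 4.43 and 4.39, Blnk at 11.16 and 10.71), 2 of 7 dendritic cell markers (Batf3 at 4.71 and 4.20, Cd209a at 4.21 and 3.78) and 2 of 10 fibroblast markers (Acta2 at 6.08 and 6.34, Pdgfrb at 3.92 and 3.84). Also above it were 3 of 8 endothelial markers (Ramp2 at 12.17 and 11.82, Vwf at 8.39 and 8.36, Kdr at 5.23 and 4.36) and 2 of 6 megakaryocyte markers (Pf4 at 11.60 and 11.70, Itga2b at 4.02 and 4.18). The same held for 4 of 7 osteoclast markers (Atp6v0d2 at 9.16 and 8.64, Ctsk at 8.80 and 8.42, Acp5 at 5.69 and 6.13, Mmp9 at 4.14 and 3.98) and 2 of 5 erythroid markers (Klf1 at 4.08 and 4.16, Epor at 4.05 and 4.01). Summed B cell markers were 11.08 to 11.38 log2 at baseline and 10.62 to 11.01 at 24 h, mast cell markers 7.17 to 7.21 and 6.48 to 6.79, and stem and progenitor markers 7.33 to 7.37 and 6.84 to 7.02 (exact p 0.1 each), where Blnk and Kit were the called members; their part in the results was not tested.

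At 24 h, 1678 of 13190 tested genes (12.7%) differed from baseline at an adjusted p under 0.05 with limma, 973 higher (7.38%) and 705 lower (5.34%). The arrays of the 2 groups did not overlap for 1625 of these genes, against 27.9% of all tested genes. Large changes were mostly rises: 101 genes rose and 35 fell by 1 log2 unit or more, 25 and 6 by 2 or more, and 9 and 0 by 3 or more. The median over all tested genes was 0.01 log2, and called genes had moved by a median of 0.44 upward and -0.39 downward. Of the 1678 genes, 46 rose from a baseline mean below background and 77 fell to a 24 h mean below it. These 2 counts include 49 genes that were below it in both groups. A second or further probe set above background was present for 701 of the 1678 genes. For 595 of the 701 all such probe sets moved the same way, and for 48 none did.

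**Figure D1:**
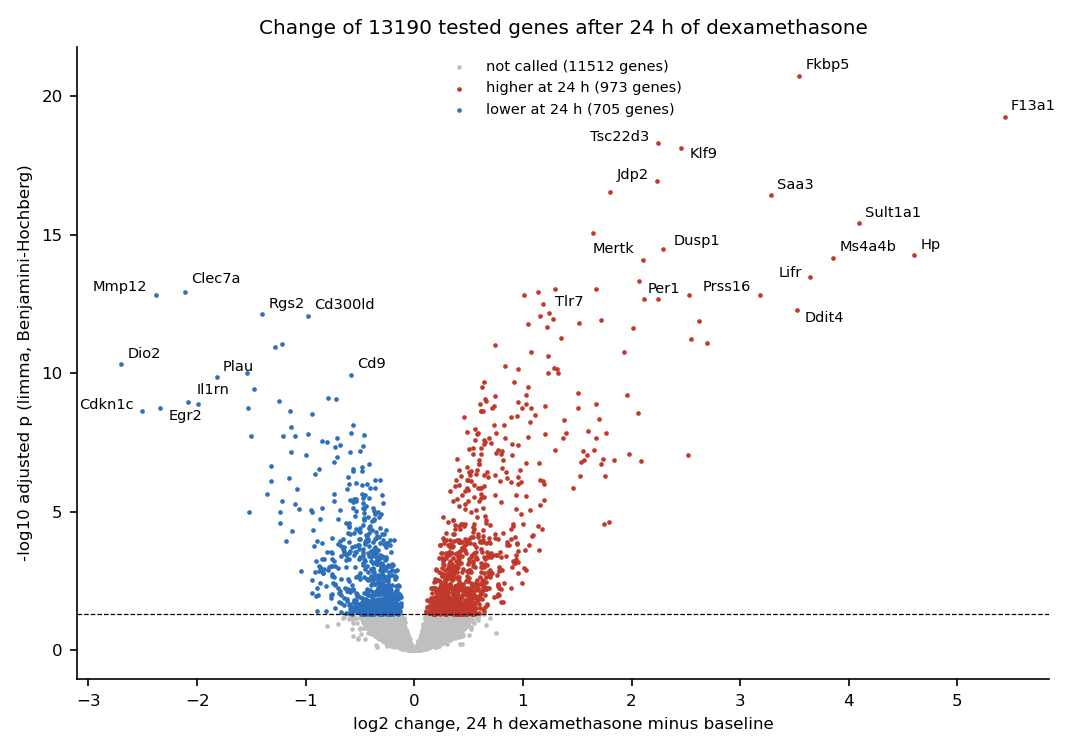
Log2 change at 24 h against baseline (horizontal axis) and -log10 of the limma adjusted p (vertical axis) for 13190 tested genes, each a point, with the threshold of 0.05 as a dashed line. The 973 higher genes reach 5.44 log2 (F13a1), whereas the 705 lower genes reach -2.70 (Dio2).

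The largest rise was that of F13a1, the A subunit of coagulation factor XIII, which crosslinks fibrin. Its log2 intensity was 4.78, 4.91 and 4.64 at baseline and 10.35, 10.03 and 10.26 at 24 h, an increase of 5.44 ± 0.13 log2 (SE) or 43.3-fold (adjusted p 5.54e-20). Hp (haptoglobin), a plasma protein that captures free haemoglobin, read 4.35, 4.06 and 4.30 at baseline and 8.83, 8.76 and 8.93 at 24 h, a rise of 4.60 ± 0.19 (24.2-fold). The groups lay far apart for both genes, and all baseline arrays were dim. Sult1a1, a sulfotransferase that conjugates phenols and drugs, read 4.58, 5.03 and 5.01 at baseline and 8.79, 8.93 and 9.17 at 24 h. Lifr, the receptor chain for leukemia inhibitory factor, read 4.05, 4.41 and 4.18 at baseline and 7.59, 7.75 and 8.25 at 24 h, and Fkbp5, a co-chaperone that lowers the hormone affinity of the receptor, read 7.61, 7.70 and 7.54 at baseline and 11.12, 11.08 and 11.28 at 24 h. These rises came to 4.09 ± 0.15, 3.65 ± 0.17 and 3.54 ± 0.07 log2, and the Fkbp5 arrays were close within each group, with SDs of 0.08 and 0.10. Ddit4, an inhibitor of mTOR complex 1, rose by 3.52 ± 0.19, Saa3, an acute phase apolipoprotein gene, by 3.28 ± 0.11, and Prss16, a serine protease gene, by 3.18 ± 0.16. Rab15, a small GTPase of endosomes, rose by 2.70 ± 0.17 and the carbonyl reductase gene Cbr2 by 2.62 ± 0.15. Ms4a4b and Cd55 came up from below background, so their rises of at least 11.2-fold and at least 4.87-fold are lower bounds.

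The largest fall was that of Dio2, the deiodinase that converts thyroxine to active thyroid hormone. It read 7.38, 6.85 and 6.96 at baseline and 4.38, 4.16 and 4.56 at 24 h, so it fell by 2.70 ± 0.18 log2 (SE) and came close to background (adjusted p 4.63e-11). Cdkn1c, an inhibitor of cyclin-dependent kinases, read 9.41, 9.47 and 9.44 at baseline and 6.44, 7.62 and 6.73 at 24 h, with no overlap but a wide spread at 24 h. Mmp12, the macrophage elastase, read 11.85, 11.58 and 11.62 at baseline and 9.02, 9.69 and 9.20 at 24 h. Cdkn1c fell by 2.51 ± 0.21 and Mmp12 fell by 2.38 ± 0.12 log2. Egr2, a zinc finger transcription factor, fell by 2.34 ± 0.19; Serpinb9b, a serine protease inhibitor gene, fell by 1.99 ± 0.16; and Pcp4l1, a gene for a small protein related to PCP4, fell by 1.54 ± 0.11. Akap2, a kinase anchor protein gene, fell by 1.51 ± 0.14 and the Fc receptor-like gene Fcrls fell by 1.53 ± 0.13.

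**Figure D2:**
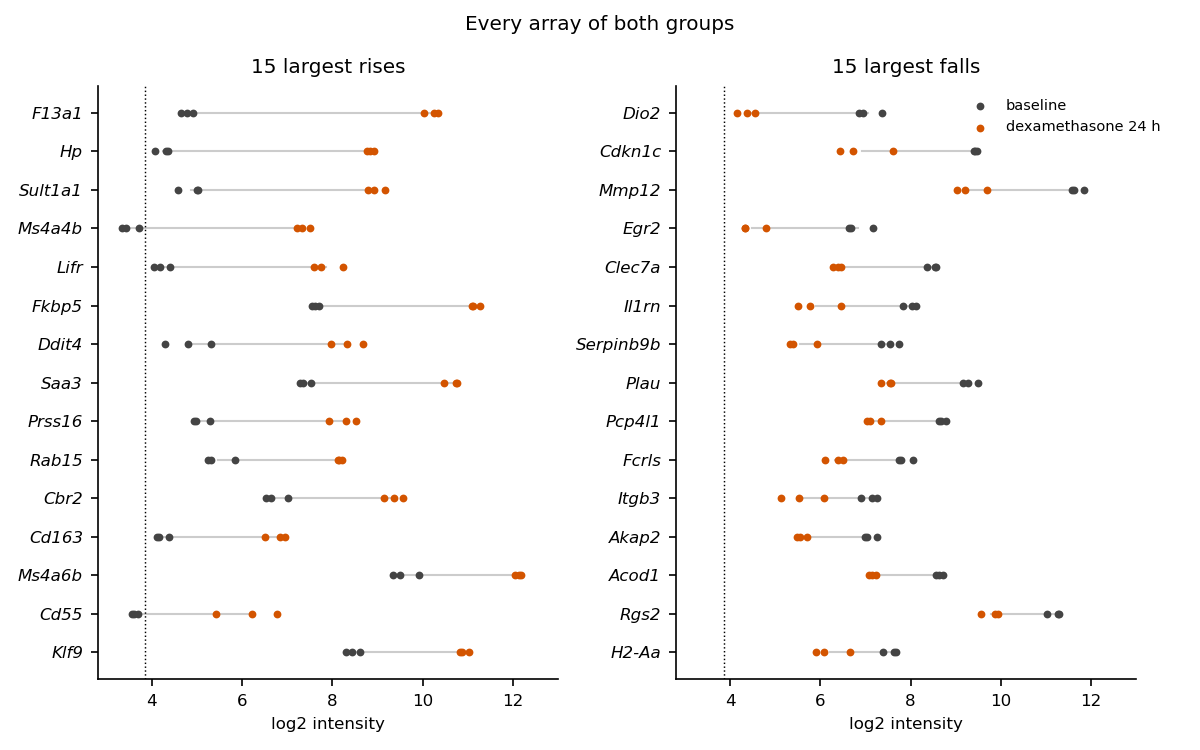
Log2 intensity (horizontal axis) of each baseline array (dark points) and each 24 h array (orange points) for the 15 largest rises and 15 largest falls, with a line between group means and the background level of 3.86 as a dotted line. The groups do not overlap for any of the 30 genes, which were chosen by size and for that separation, and Ms4a4b and Cd55 start below background.

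Among 28 tested genes of receptor signalling and early targets, 14 rose and 4 fell, with a median of 0.24 log2. Over all tested genes, 7.38% rose and 5.34% fell. Nr3c1 itself read 8.49, 8.54 and 8.37 at baseline and 8.36, 8.22 and 8.36 at 24 h, so the groups nearly touched, and the difference of -0.15 ± 0.08 log2 did not pass the test (adjusted p 0.255); its other probe sets ran from -0.32 to 0.26, with both signs. Hsp90aa1, a chaperone of the receptor, fell by 0.21 ± 0.04. Classic targets were high: Tsc22d3, which encodes the anti-inflammatory leucine zipper GILZ, read 8.79, 8.85 and 8.70 at baseline and 10.97, 11.06 and 11.04 at 24 h, a rise of 2.24 ± 0.06 log2 without overlap. Klf9, a Kruppel-like repressor, rose by 2.45 ± 0.07, and Zbtb16, the repressor PLZF, by 1.75 ± 0.26 from near background. Hsd11b1, the enzyme that regenerates active glucocorticoid from its inert form, rose by 0.62 ± 0.15, a call lost without 24 h replicate 3. The 4 falls were Cdkn1c, Rgs2, Hsp90aa1 and Anxa1; of these Cdkn1c and Anxa1 are known as genes the receptor raises in other cells. Anxa1, the annexin that limits leukocyte recruitment, fell by 0.16 ± 0.03 from a baseline of 12.69 ± 0.02 log2 (SD, n = 3). Zbtb16 and Hsd11b1 were named after their values were seen.

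The circadian clock is a loop in which Clock and Arntl (Bmal1) drive Per and Cry genes, whose products shut the drive off. Of 19 tested clock genes 3 rose and 4 fell (15.8% and 21.1%, beside 7.38% and 5.34% of all tested genes), with a median of -0.14 log2. Per1, a direct target of the receptor, read 6.34, 6.36 and 6.05 at baseline and 8.35, 8.45 and 8.17 at 24 h, so every 24 h array was above baseline, by 2.07 ± 0.10 log2 on average. Arntl read 6.35, 6.27 and 6.22 at baseline and 7.32, 7.13 and 7.30 at 24 h, a rise of 0.97 ± 0.11 without overlap, and Nfil3, a repressor of clock output genes, rose by 0.92 ± 0.15. On the other side, Cry1 read 7.58, 7.42 and 7.35 at baseline and 7.08, 6.94 and 6.79 at 24 h and fell by 0.51 ± 0.08. Bhlhe40 fell by 0.60 ± 0.10, the output factor Tef fell by 0.53 ± 0.08 and the heme-binding repressor Nr1d2 fell by 0.42 ± 0.06; the calls for Tef and Nr1d2 were lost when all probe sets of a gene were averaged. Per2 stood at 3.27 ± 0.17 log2 at 24 h, below background as at baseline (3.43 ± 0.28). The other 11 clock genes, Per3, Cry2, Clock, Npas2, Rora, Dbp, Hlf, Bhlhe41, Ciart, Csnk1d and Csnk1e, lay between -0.40 and 0.45 log2 and did not pass the test. Between these times Cry1 was 1.26 log2 above baseline at 10 h and then changed by -1.77 ± 0.08 to 24 h (adjusted p 1.16e-12), and Tef was 0.41 above baseline at 10 h and changed by -0.94 ± 0.08. The mean of Per1 was above baseline at all 5 times.

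**Figure D3:**
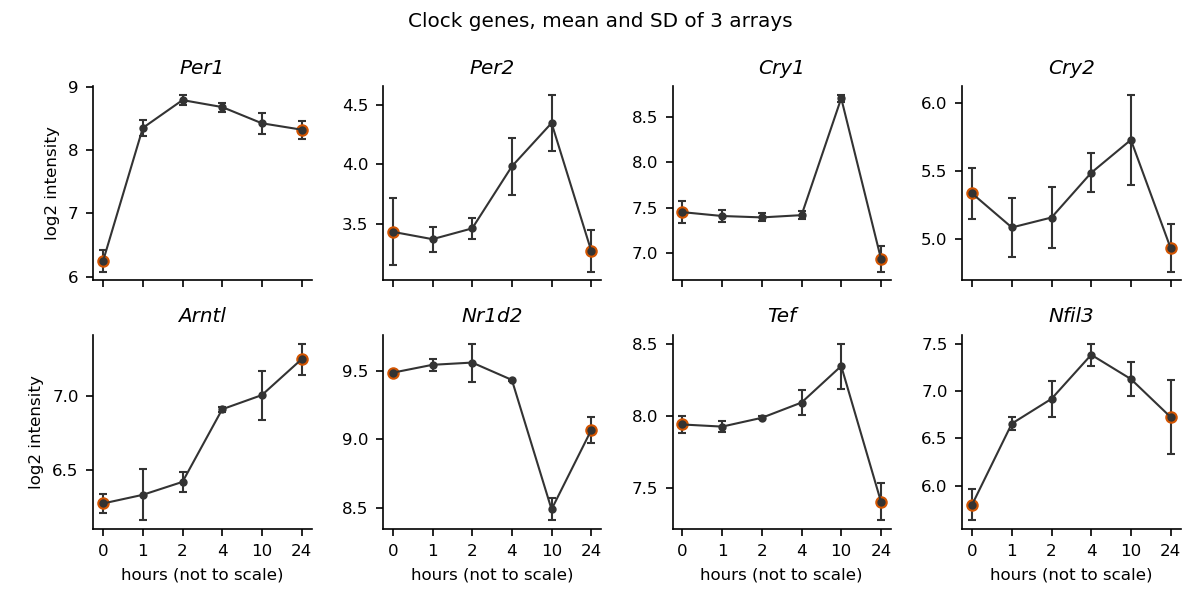
Mean log2 intensity and SD of 3 arrays (vertical axis) of 8 clock genes at baseline and after 1, 2, 4, 10 and 24 h of dexamethasone (horizontal axis, evenly spaced), with baseline and 24 h ringed in orange. Per1 stays high from 1 h on, whereas Cry1, Cry2, Per2 and Tef have their highest mean at 10 h and lie below baseline at 24 h; Per2 is below the background level of 3.86 at both ends.

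MAP kinase phosphatases remove the activating phosphates of ERK, p38 and JNK. Dusp1, which acts on p38 and JNK, read 8.73, 8.74 and 9.03 at baseline and 10.93, 11.28 and 11.16 at 24 h, a rise of 2.29 ± 0.09 log2, and all 24 h arrays were above baseline. Dusp6, which acts on ERK, rose by 0.42 ± 0.06 and Dusp22 by 0.38 ± 0.10, whereas the nuclear phosphatase gene Dusp4 fell by 1.10 ± 0.10. Of 22 tested genes of this feedback 3 rose and 7 fell (13.6% and 31.8%, beside 7.38% and 5.34% of all tested genes), with a median of -0.14 log2. The largest fall was that of Rgs2, a brake on G protein signalling. Rgs2 read 11.26, 11.02 and 11.29 at baseline and 9.56, 9.93 and 9.87 at 24 h and fell by 1.40 ± 0.08. Among 24 immediate-early transcription factors 4 rose and 5 fell (16.7% and 20.8%, beside 7.38% and 5.34% of all tested genes), with a median of 0.05. Klf4 rose by 0.90 ± 0.09 and Fos by 0.50 ± 0.10, Klf4 from 8.61 ± 0.20 to 9.51 ± 0.06 log2 (SD, n = 3). Egr2 read 7.16, 6.69 and 6.64 at baseline and 4.33, 4.80 and 4.34 at 24 h with no overlap, and Atf3 fell by 0.51 ± 0.11. The 5 falls became 3 without baseline replicate 1, baseline replicate 2 or 24 h replicate 3, where Egr1, at -0.90 ± 0.28 log2 with all arrays, was among the calls lost.

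Haptoglobin binds free haemoglobin, and Cd163 takes up the complex, whose heme is then broken down by Hmox1. Cd163 read 4.17, 4.39 and 4.11 at baseline and 6.83, 6.51 and 6.96 at 24 h, a rise of 2.55 ± 0.15 log2 (adjusted p 5.73e-12) from near background, parallel in sign to that of Hp. Of 19 tested genes for haem and iron handling 6 rose and 4 fell (31.6% and 21.1%, beside 7.38% and 5.34% of all tested genes), with a median of 0.03 log2. Lcn2, which binds bacterial iron carriers, read 4.88, 4.71 and 3.91 at baseline and 6.50, 5.91 and 6.47 at 24 h, so its baseline arrays were spread widely yet all below the 24 h arrays. Hmox1 stood 0.37 ± 0.10 higher, a call lost without 24 h replicate 1 or 2 or baseline replicate 3. Blvrb, a biliverdin reductase, fell by 0.30 ± 0.06, and Ltf, which encodes lactoferrin, fell by 0.90 ± 0.22, a call lost without baseline replicate 1. Among 11 acute phase and antimicrobial genes 4 rose and 1 fell (36.4% and 9.09%, beside 7.38% and 5.34% of all tested genes), with a median of -0.01. Saa3 read 7.52, 7.35 and 7.27 at baseline and 10.75, 10.47 and 10.77 at 24 h, and Chil3, a chitinase-like secreted protein also known as Ym1, read 6.68, 6.50 and 6.37 at baseline and 8.44, 8.57 and 8.72 at 24 h; the groups were separate for both genes. Chil3 rose by 2.06 ± 0.17. Ngp, a neutrophil granule protein gene, read 7.26, 7.17 and 6.67 at baseline and 5.83, 6.14 and 5.75 at 24 h and fell by 1.13 ± 0.18; without baseline replicate 3 the list had 2 falls. Of 12 neutrophil markers 10 were above background, Mmp8 rose and S100a9, Ngp and Ltf fell, and Elane and Cxcr2 were at background. Their summed level was 9.84 to 10.49 log2 at baseline and 10.20 to 10.39 at 24 h, and the part of other cells in these changes was not tested.

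Dying cells are recognised through bridging proteins and receptors, and 25 tested genes of this uptake split evenly, with 8 higher, 8 lower and a median of 0.03 log2. Each way this was 32.0%, beside 7.38% higher and 5.34% lower over all tested genes. Mertk, the receptor for the bridging proteins Gas6 and Pros1, read 7.35, 7.76 and 7.31 at baseline and 9.46, 9.63 and 9.64 at 24 h, a rise of 2.10 ± 0.09 (adjusted p 8.01e-15). Stab1, a scavenger receptor for exposed phosphatidylserine, rose by 1.05 ± 0.10. Among the bridging proteins Gas6 fell by 0.29 ± 0.07 and Mfge8, the bridge to integrins, fell by 0.37 ± 0.08. Itgb3, the integrin beta 3 chain that pairs with alpha v, read 7.15, 6.90 and 7.25 at baseline and 5.12, 5.54 and 6.07 at 24 h and fell by 1.52 ± 0.21, with no overlap. Trem2, a lipid-sensing receptor, fell by 0.28 ± 0.04. Itgav stood at -0.40 ± 0.07 log2, but its second probe set above background stood at 0.30, so its direction depends on the probe set. With the most variable probe set the 8 falls became 4 and the rises stayed at 8: Gas6 and Trem2 lost their calls, and Tgm2, a crosslinking enzyme gene at -0.39 ± 0.10, turned to 0.15. Gas6, Mfge8 and Trem2 were named after their values were seen.

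The 3 chains of C1q, the protein that starts the classical complement pathway and tags dying cells, rose together. C1qa read 9.38, 9.59 and 9.35 at baseline and 10.39, 10.45 and 10.36 at 24 h, C1qb read 11.48, 11.72 and 11.45 at baseline and 12.15, 12.19 and 12.14 at 24 h and C1qc read 11.02, 11.10 and 10.87 at baseline and 11.60, 11.58 and 11.59 at 24 h. None of the 3 genes overlapped between groups, and the rises were 0.96 ± 0.08, 0.61 ± 0.05 and 0.59 ± 0.06 log2. Of 14 tested complement genes 6 rose and 1 fell (42.9% and 7.14%, beside 7.38% and 5.34% of all tested genes), with a median of 0.14. Cd55, which shields cells from complement, read 3.55, 3.60 and 3.69 at baseline and 6.23, 6.78 and 5.42 at 24 h, with a wide spread at 24 h and all baseline arrays below background. C5ar1, the receptor for the C5a fragment, rose by 0.34 ± 0.06 and was named after its value was seen. Itgax, the alpha chain of complement receptor 4, fell by 0.63 ± 0.15, whereas Itgam, the alpha chain of complement receptor 3, rose by 0.55 ± 0.09.

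Coagulation genes moved in both directions, with 4 of 16 higher and 4 lower (median -0.03 log2), beside 7.38% and 5.34% of all tested genes. Next to F13a1, Thbd, which encodes the anticoagulant receptor thrombomodulin, read 6.24, 5.67 and 5.77 at baseline and 7.23, 7.32 and 7.30 at 24 h and rose by 1.40 ± 0.13; the protease precursors F10 and F7 rose by 0.85 ± 0.16 and 0.50 ± 0.10. Plau, the urokinase that turns plasminogen into the fibrin-dissolving protease plasmin, read 9.50, 9.16 and 9.27 at baseline and 7.36, 7.56 and 7.55 at 24 h and fell by 1.82 ± 0.13, with the groups apart. Its receptor gene Plaur fell by 0.28 ± 0.07, and Procr, the receptor of protein C, fell by 1.25 ± 0.10.

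Among 21 genes of Fc receptors and ITAM signalling 4 rose and 7 fell (19.0% and 33.3%, beside 7.38% and 5.34% of all tested genes), with a median of -0.07 log2. Fcgr3, an activating receptor for IgG, rose by 0.46 ± 0.04, Fcgr4 by 0.45 ± 0.09 and Fcgrt, the neonatal receptor that recycles IgG, by 0.96 ± 0.11. Fcgr1, the high-affinity IgG receptor, stood at -0.31 ± 0.10 with overlapping groups, a called fall that was lost in 6 settings, among them without baseline replicate 2 or 24 h replicate 1 or 3. Trem3 rose from below background, by at least 1.84-fold. Cd300ld, an activating lipid-binding receptor of the CD300 family, read 9.64, 9.67 and 9.55 at baseline and 8.60, 8.69 and 8.63 at 24 h, a fall with a small spread. It fell by 0.98 ± 0.05 (adjusted p 8.46e-13) and Cd300lb fell by 0.59 ± 0.08.

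Of 24 C-type lectins and scavenger receptors 9 rose and 4 fell (37.5% and 16.7%, beside 7.38% and 5.34% of all tested genes), with a median of 0.06 log2. Marco, a scavenger receptor for unopsonised particles, read 7.80, 7.45 and 7.19 at baseline and 9.62, 9.33 and 9.53 at 24 h and rose by 2.01 ± 0.12. Mrc1, the mannose receptor, rose by 0.62 ± 0.08, Msr1 by 0.54 ± 0.08 and the galactose-type lectin gene Clec10a by 0.77 ± 0.18. Clec7a (dectin-1), the receptor for fungal beta-glucan, read 8.53, 8.37 and 8.56 at baseline and 6.29, 6.39 and 6.46 at 24 h, so all 24 h arrays were below baseline. It fell by 2.11 ± 0.10 (adjusted p 1.16e-13). Cd5l, a secreted scavenger receptor protein gene, fell by 0.62 ± 0.12 and the fatty acid receptor gene Cd36 fell by 0.39 ± 0.06. Msr1 was named after its value was seen.

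The MS4A genes encode small membrane proteins with 4 crossings, several of which lie beside each other in the genome and resemble each other, so signal may be shared between copies. Of 10 tested members 5 rose and 0 fell, with a median of 0.65 log2. The shares of all tested genes were 7.38% and 5.34%, so 0 falls among 10 members says little about the family. An unadjusted p under 0.05 with limma was found for 6 members, against 24.9% of all tested genes. The counts were 5 and 0 under all 19 alternative settings run, which share these data. Ms4a4b read 3.42, 3.72 and 3.33 at baseline and 7.33, 7.22 and 7.49 at 24 h. Ms4a6b read 9.35, 9.91 and 9.50 at baseline and 12.18, 12.04 and 12.14 at 24 h, and Ms4a6c stood at 9.22 ± 0.30 at baseline and 11.34 ± 0.04 at 24 h (SD, n = 3). The groups were separate in each case, and Ms4a6b and Ms4a6c were well above background already at baseline. Their rises were 2.53 ± 0.13 and 2.12 ± 0.11, beside 1.71 ± 0.19 for Ms4a4c and 1.16 ± 0.06 for Ms4a6d, the last named after its value was seen. The other 5 members lay between -0.31 and 0.13 log2 and were not called.

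Tumour necrosis factor is the cytokine most often used to show glucocorticoid repression. In these cells, for which the labels name no inflammatory stimulus, Tnf read 7.68, 7.74 and 7.94 at baseline and 7.15, 7.11 and 6.99 at 24 h, so the groups were separate and Tnf fell by 0.70 ± 0.10 log2 (adjusted p 1.77e-05). Of 26 genes of this cytokine list 3 rose and 4 fell (11.5% and 15.4%, beside 7.38% and 5.34% of all tested genes), with a median of -0.02 log2. In both groups 7 of the 26 were at background, among them Lif, 1 of the 4 falls. Lif stood at 3.82 ± 0.53 at baseline and 3.17 ± 0.16 at 24 h (SD, n = 3) with overlapping arrays. Its call was lost without 24 h replicate 1 or 2 or baseline replicate 2 or 3. Zfp36l1, which speeds the decay of AU-rich messages, rose by 0.89 ± 0.08, and Il15ra, the chain that presents interleukin 15, by 1.46 ± 0.18. In the interleukin 1 and 18 system 4 of 15 rose and 2 fell (26.7% and 13.3%, beside 7.38% and 5.34%), with a median of 0.08. Il1rn, the natural antagonist of the interleukin 1 receptor, read 8.11, 7.84 and 8.04 at baseline and 5.77, 6.46 and 5.52 at 24 h and fell by 2.08 ± 0.17, with no overlap. Il18 rose by 0.94 ± 0.13 and Il18rap, a chain of its receptor, by 0.95 ± 0.16. The 4 rises became 2 without baseline replicate 3, and the 2 falls became 1 without baseline replicate 2, where Casp1 was lost.

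Chemokines attract other leukocytes. Of 22 tested 3 rose and 3 fell (13.6% each, beside 7.38% and 5.34% of all tested genes), with a median of -0.04 log2. The rise of Ccl12, at 0.54 ± 0.18 (limma adjusted p 0.0493), had overlapping groups. Its call was lost in 10 of 19 alternative settings, among them without baseline replicate 1 or 3 or 24 h replicate 1 or 2. The monocyte attractant gene Ccl2 read 11.25, 11.36 and 11.26 at baseline and 10.87, 11.09 and 10.77 at 24 h and fell by 0.38 ± 0.10, a call lost without 24 h replicate 3, and Cxcl16, a membrane-bound chemokine and lipid receptor, fell by 0.46 ± 0.06. Ccl6 rose by 0.49 ± 0.04 and Ccl9 by 0.27 ± 0.04, both from baselines of 11.59 ± 0.11 and 12.72 ± 0.03 (SD, n = 3). Among 19 receptors for chemoattractants 5 rose and 4 fell (26.3% and 21.1%, beside 7.38% and 5.34%), with a median of -0.04. Of these falls, that of Ccr3 was below background in both groups (3.51 log2 at baseline and 3.08 at 24 h). Fpr2, a receptor for formyl peptides, for serum amyloid A and for annexin A1, read 5.09, 4.64 and 4.66 at baseline and 6.68, 6.69 and 7.27 at 24 h and rose by 2.08 ± 0.22. Ccr1 rose by 0.82 ± 0.09 and the prostaglandin E receptor gene Ptger2 by 1.15 ± 0.12. Cx3cr1, the fractalkine receptor of resident macrophages, fell by 0.60 ± 0.14, and S1pr2 fell by 0.67 ± 0.12. Without 24 h replicate 1 the 4 falls became 2.

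Pattern receptors sense microbial molecules, and 6 of 27 genes of this system rose while 3 fell, with a median of 0.10 log2. The shares were 22.2% and 11.1%, beside 7.38% and 5.34% of all tested genes. The endosomal receptors for single-stranded RNA rose: Tlr7 read 9.04, 9.20 and 9.11 at baseline and 10.36, 10.34 and 10.37 at 24 h and Tlr8 read 5.32, 5.33 and 5.20 at baseline and 6.84, 6.76 and 6.85 at 24 h. Both were separate from baseline, with rises of 1.24 ± 0.07 and 1.53 ± 0.16. Tlr2, the receptor for lipopeptides, was higher by 0.36 ± 0.08 and was named after its value was seen. Cd180, a relative of Tlr4, fell by 0.54 ± 0.10. The 3 falls became 1 without 24 h replicate 1, without 24 h replicate 3 or without baseline replicate 2, as Irak2 and Unc93b1 were lost. MHC class II molecules present peptides to T cells. H2-Aa read 7.38, 7.67 and 7.64 at baseline and 5.90, 6.66 and 6.08 at 24 h, so every 24 h array was below baseline. By this probe set H2-Aa fell by 1.35 ± 0.17, while its other probe set above background stood at -0.49. H2-Eb1 fell by 0.83 ± 0.16. H2-Ab1 stood at -0.62 ± 0.17 with overlapping groups, a called fall lost without baseline replicate 1 or 3 or 24 h replicate 1 or 2. Marchf1, a ligase that removes class II molecules from the surface, rose by 1.03 ± 0.11. Cd274, which encodes the T cell inhibitor PD-L1, fell by 0.94 ± 0.13. In all 2 of 24 genes of this list rose (8.33%, near the 7.38% of all tested genes) and 4 fell (16.7% beside 5.34%; median -0.05). The summed dendritic cell markers were 6.51 to 6.72 log2 at baseline and 6.36 to 6.44 at 24 h (exact p 0.1). Of these 7 markers 5, Flt3, Zbtb46 and Xcr1 among them, were at background, whereas Batf3 stood at 4.71 and 4.20 and Cd209a at 4.21 and 3.78 log2, both lower at 24 h and not called; their part in the class II falls was not tested.

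Interferon-stimulated genes answer to interferon through a promoter element written here as TTTC, any 2 bases and TTTC, searched on both strands. It was in the 250 base window of 11 of 28 genes of this list with a promoter (39.3%), against 3.05% of the promoters of all tested genes. For the 3 called genes that hold it, each with 2 matches, the match nearest the start site is printed within a stretch of at most 40 bases read along the gene's strand, with every match inside the stretch in capitals. The Irgm1 stretch holds both of its matches, which overlap. They are Ifit1 (chr19:34640789-34640828, plus strand), Ifit3 (chr19:34583392-34583431, plus strand) and Irgm1 (chr11:48871421-48871459, minus strand).
Ifit1 site: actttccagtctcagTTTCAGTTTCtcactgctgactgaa
Ifit3 site: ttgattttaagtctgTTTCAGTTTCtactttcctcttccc
Irgm1 site: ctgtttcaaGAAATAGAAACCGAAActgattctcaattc
Ifit1, an antiviral RNA-binding protein gene, read 6.36, 7.09 and 6.83 at baseline and 5.85, 5.62 and 5.98 at 24 h, without overlap, and fell by 0.95 ± 0.21 log2. Ifit3 read 5.96, 6.86 and 7.01 at baseline and 5.76, 5.52 and 6.10 at 24 h, with the highest 24 h array above the lowest baseline array, and fell by 0.82 ± 0.26, and Irgm1, a GTPase of autophagy, fell by 0.38 ± 0.11. Of 35 tested genes 1 rose and 5 fell (2.86% and 14.3%, beside 7.38% and 5.34% of all tested genes), with a median of -0.05. In this list 8 genes with the same element in their window were not called. Of the 5 falls only that of Ifit1 kept its call whichever single array was left out. There was 1 fall without 24 h replicate 1 or baseline replicate 2, there were 2 without 24 h replicate 2 or baseline replicate 3, and 8 without baseline replicate 1. Slfn2, the member that rose, stood at 0.48 ± 0.05; without baseline replicate 2 the list had 2 rises.

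Osteoclasts share their precursor with macrophages. Jdp2, an AP-1 repressor needed for osteoclast formation, read 7.17, 7.16 and 7.06 at baseline and 9.42, 9.35 and 9.33 at 24 h, a rise of 2.24 ± 0.07 log2 with tight replicates (adjusted p 1.16e-17). In all 3 of 17 osteoclast genes rose and 2 fell (17.6% and 11.8%, beside 7.38% and 5.34% of all tested genes), with a median of -0.08. Itgb3 was 1 of the falls, and the second, Atp6v0d2, was lost without baseline replicates 1 or 2 or 24 h replicates 1 or 3. With the values quantile normalized again 4 fell. Nfatc1, the master factor of osteoclasts, was higher by 0.28 ± 0.09 with its brightest probe set, and its 4 others above background ran from -0.27 to 0.01, so no direction is given. Of 26 integrins and adhesion genes 4 rose and 8 fell (15.4% and 30.8%, beside 7.38% and 5.34%), with a median of -0.03. Itgb7 rose by 0.43 ± 0.10, and the tetraspanin gene Cd9 read 12.58, 12.56 and 12.58 at baseline and 11.92, 12.02 and 12.02 at 24 h and fell by 0.59 ± 0.04, a small change with a small spread. Of 18 metalloproteinases and their inhibitors 6 rose and 3 fell (33.3% and 16.7%, beside 7.38% and 5.34%), with a median of -0.03. The collagenase gene Mmp8 read 7.65, 7.81 and 7.17 at baseline and 9.29, 9.06 and 9.04 at 24 h and rose by 1.59 ± 0.16; the collagenase gene Mmp13 read 8.42, 7.84 and 7.97 at baseline and 6.62, 6.75 and 6.90 at 24 h and fell by 1.32 ± 0.14. Mmp19 rose by 0.80 ± 0.15 and the sheddase gene Adam8 by 0.47 ± 0.07.

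Lipid handling moved both ways, with 6 of 32 genes higher and 7 lower (18.8% and 21.9%, beside 7.38% and 5.34% of all tested genes) and a median of -0.03 log2. Apoc2, the apolipoprotein that activates lipoprotein lipase, read 6.34, 6.17 and 6.32 at baseline and 8.58, 8.38 and 8.60 at 24 h and rose by 2.24 ± 0.11. Apoe, the apolipoprotein of cholesterol efflux, rose by 1.03 ± 0.21 and Fabp4, a fatty acid carrier, by 0.92 ± 0.07; Fabp4 was not called with its most variable probe set. Pparg, the nuclear receptor for fatty acids that drives Cd36 and Fabp4 in macrophages, read 8.57, 8.44 and 8.46 at baseline and 7.33, 7.66 and 7.57 at 24 h and fell by 0.98 ± 0.09. Fabp3 fell by 1.00 ± 0.10, the lysosomal lipase gene Lipa fell by 0.68 ± 0.09 and lipoprotein lipase, Lpl, fell by 0.36 ± 0.04, the last named after its value was seen. Of 24 sterol and fatty acid synthesis genes 0 rose and 0 fell in limma's test and 0 had an unadjusted p under 0.05, with a median of -0.11 log2 and 19 of the 24 below 0, against 47.3% of all tested genes. Msmo1, a sterol oxidase gene, stood at -0.20 ± 0.11 (adjusted p 0.283).

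Glycolysis and hypoxia genes had 2 rises and 8 falls among 27 (median -0.18 log2), with 21 of the 27 below 0, against 47.3% of all tested genes. The rises (7.41%) were near the 7.38% of all tested genes, and the falls (29.6%) stood beside 5.34%. The aldolase gene Aldoc fell by 0.60 ± 0.11, Tpi1, the triose phosphate isomerase gene, fell by 0.31 ± 0.04, Ldha, which makes lactate, fell by 0.29 ± 0.04 and Vegfa, the vessel growth factor, fell by 0.75 ± 0.16. Tpi1 read 11.86, 11.87 and 11.82 at baseline and 11.53, 11.55 and 11.53 at 24 h, so the shift was small but without overlap. The 2 rises were Ddit4 and Ndrg1, and Ndrg1 was lost without baseline replicate 1 or 24 h replicate 3. Ldha was named after its value was seen. Of 32 respiratory chain subunits 0 rose and 4 fell, with a median of -0.05. The share called, 12.5%, was near the 12.7% of all tested genes, with 7.38% of all genes rising and 5.34% falling. An unadjusted p under 0.05 with limma was found for 6 of the 32, against 24.9% of all tested genes. The falls became 1 without baseline replicate 2 and 2 without 24 h replicate 3. Sdhc, of complex II, fell by 0.29 ± 0.06.

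Nrf2 is the factor that turns on antioxidant enzymes. Of 24 tested genes 6 rose and 8 fell, beside 7.38% and 5.34% of all tested genes, with a median of -0.09 log2. Gpx3, the secreted glutathione peroxidase, read 5.56, 5.48 and 5.10 at baseline and 6.81, 6.95 and 7.18 at 24 h and rose by 1.60 ± 0.15, whereas the Nrf2 targets Srxn1 (sulfiredoxin) and Txnrd1 (thioredoxin reductase) fell by 0.85 ± 0.08 and fell by 0.43 ± 0.05. Srxn1 read 8.89, 8.81 and 8.74 at baseline and 7.84, 8.02 and 8.02 at 24 h, with no overlap, and 1 of its 3 other probe sets stood at 0.02. Of 10 metallothionein and zinc transport genes 1 rose and 3 fell (median -0.04). With 7.38% of all tested genes rising and 5.34% falling, 1 rise of 10 was near the overall share. Slc30a1, the zinc exporter, fell by 0.56 ± 0.09, and Slc39a8, an importer, was higher by 0.30 ± 0.08. The Slc39a8 call was lost without baseline replicate 3 or 24 h replicate 3. It was also lost with the most variable probe set (0.15) and with the mean of all probe sets (0.23). Of 29 genes of ER stress and the amino acid response 3 rose and 5 fell (10.3% and 17.2%, beside 7.38% and 5.34%), with a median of -0.05. Without baseline replicate 3 there were 5 rises. Herpud1, of ER protein quality control, rose by 0.59 ± 0.09, and Slc7a5, a transporter of large neutral amino acids, fell by 1.04 ± 0.22.

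Among 22 annexins and eicosanoid enzymes 3 rose and 4 fell (13.6% and 18.2%, beside 7.38% and 5.34% of all tested genes), with a median of -0.03 log2. Pla2g7, the hydrolase of platelet activating factor, read 9.23, 9.56 and 8.97 at baseline and 11.25, 11.18 and 11.12 at 24 h and rose by 1.93 ± 0.12. Ephx1, an epoxide hydrolase, fell by 0.39 ± 0.08. Of 30 lysosomal genes 5 rose and 2 fell (16.7% and 6.67%, beside 7.38% and 5.34%), with a median of 0.04. The proteases Ctsh and Lgmn rose by 0.56 ± 0.05 and 0.38 ± 0.04. Without any 1 of baseline replicates 1 and 2 and 24 h replicates 1 and 3 there was 1 fall, of Lipa. Of 14 purinergic genes 5 rose and 1 fell (35.7% and 7.14%, beside 7.38% and 5.34%), with a median of 0.07. P2ry12, the ADP receptor that marks microglia, read 5.24, 5.47 and 4.52 at baseline and 6.85, 6.78 and 6.86 at 24 h and rose by 1.76 ± 0.20; its relatives P2ry13 and P2ry14 rose by 1.07 ± 0.15 and 0.65 ± 0.12. P2ry1, at -0.69 ± 0.17, was not called without 24 h replicate 1 or baseline replicate 3.

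Mitosis and DNA replication genes gave few calls. Of 28 mitosis genes 0 rose and 0 fell in limma's test, 4 had an unadjusted p under 0.05, against 24.9% of all tested genes, and the values lay between -0.17 and 0.21 log2; without 24 h replicate 2 there was 1 rise. Mki67, a marker of dividing cells, stood at 11.33 ± 0.16 at baseline and 11.35 ± 0.11 log2 at 24 h (SD, n = 3). Of 27 DNA replication genes 0 rose and Pcna, the polymerase clamp, fell by 0.19 ± 0.04. This share of falls, 3.7%, stood beside 5.34% of all tested genes. In limma's test 3 had an unadjusted p under 0.05, and without 24 h replicate 1 there were 2 falls. Of 30 cell cycle brakes and cyclins 4 rose and 4 fell (median 0.07), 26.7% called against 12.7% of all tested genes. Mxd4, an antagonist of Myc, rose by 0.63 ± 0.09 and the D cyclin gene Ccnd3 by 0.55 ± 0.09, whereas Ccnd1 fell by 0.46 ± 0.06 and the stress gene Gadd45a fell by 0.65 ± 0.11. The 4 rises became 2 without 24 h replicate 3.

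Survival and nutrient-sensing genes gave more rises than falls, as did all tested genes (7.38% and 5.34%). With the values quantile normalized again, 49% of the calls over all genes were rises. Of 22 BCL2 family and cell death genes 4 rose (18.2%, beside 7.38%) and 0 fell (beside 5.34%), with a median of 0.05 log2. An unadjusted p under 0.05 with limma was found for 8 of them, against 24.9% of all tested genes. There was 1 fall when the values were quantile normalized again. Birc3, an inhibitor of apoptosis, rose by 0.74 ± 0.07, Bcl2a1a, whose probe sets may also read its near-identical copies, by 0.69 ± 0.12 and Bcl2l1, which encodes BCL-XL, by 0.42 ± 0.07. Of 23 FoxO, mTOR and insulin-related genes 7 rose and 2 fell (30.4% and 8.7%, beside 7.38% and 5.34%), with a median of 0.09. Ddit4 read 5.32, 4.28 and 4.81 at baseline and 8.31, 7.98 and 8.68 at 24 h, with scattered baseline arrays but none near the 24 h arrays. Deptor, a second brake on mTOR, rose by 1.21 ± 0.11 and the adaptor gene Gab1 by 0.79 ± 0.14. Igf1, a growth factor that macrophages secrete, read 11.84, 11.90 and 11.85 at baseline and 11.10, 11.25 and 11.07 at 24 h and fell by 0.72 ± 0.06. Sesn1, the second fall, was lost without 24 h replicate 1 or 2 or baseline replicate 2. Of 26 receptors of the gp130 family and other cytokines 6 rose and 2 fell (23.1% and 7.69%, beside 7.38% and 5.34%), with a median of 0.01. Ifngr1, the interferon gamma receptor, stood at 0.50 ± 0.06 next to Lifr.

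Lineage factors set macrophage identity. Of 27 lineage factors 5 rose and 1 fell (18.5% and 3.7%, beside 7.38% and 5.34% of all tested genes), with a median of -0.02 log2. Id1, an inhibitor of basic helix-loop-helix factors, read 5.25, 4.94 and 4.73 at baseline and 6.87, 6.45 and 6.26 at 24 h and rose by 1.55 ± 0.16, and Maf, a factor of resident macrophages, rose by 0.55 ± 0.07. The fall, of Etv3, was lost without baseline replicate 1 or any 24 h replicate. Polarization genes split, with 7 of 23 higher and 6 lower (30.4% and 26.1%, beside 7.38% and 5.34%) and a median of -0.03. Acod1, the enzyme that makes itaconate in activated macrophages, read 8.57, 8.62 and 8.71 at baseline and 7.24, 7.15 and 7.08 at 24 h and fell by 1.48 ± 0.11. Fcrls read 7.75, 8.05 and 7.78 at baseline and 6.10, 6.39 and 6.51 at 24 h, and Ednrb, an endothelin receptor, fell by 1.07 ± 0.15. Cd163, Chil3, Marco, Clec10a and Mrc1 were among those that rose. Of 8 S100 proteins 2 rose and 1 fell (median -0.01), beside 7.38% and 5.34% of all tested genes, and shares of 8 members are coarse. S100a9, a subunit of calprotectin, read 8.69, 8.41 and 7.80 at baseline and 6.96, 7.49 and 6.90 at 24 h and fell by 1.18 ± 0.20, and S100a10, the partner of annexin A2, rose by 0.33 ± 0.04. The second rise, of S100a13, was lost without baseline replicates 1 or 2 or 24 h replicates 1 or 3.

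**Figure D4:**
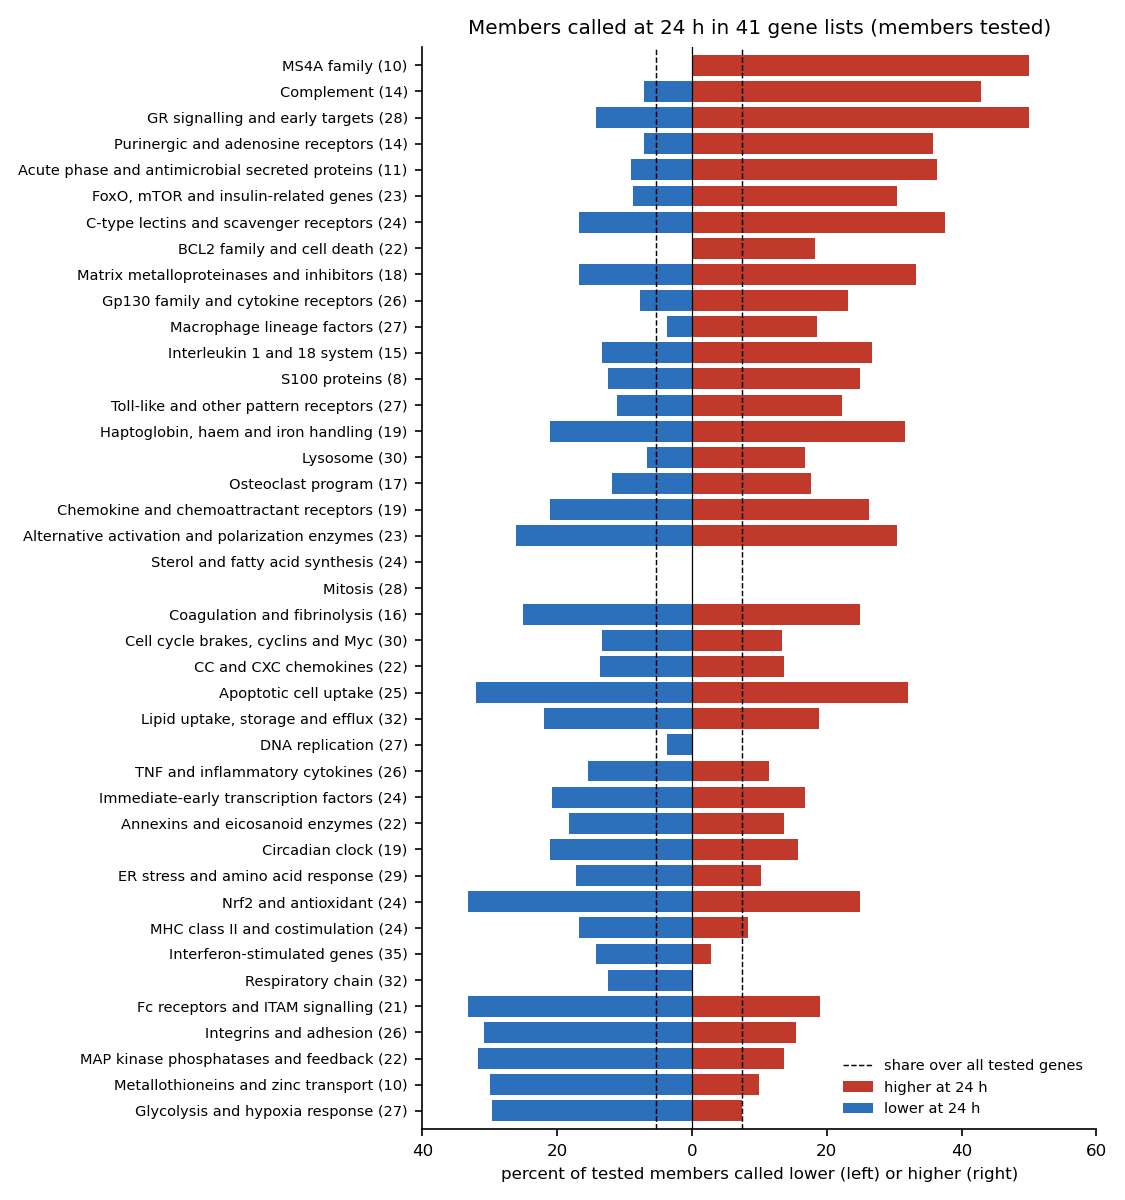
Share of the tested members of each of 41 gene lists that were called lower (blue, left) or higher (red, right) at 24 h, in percent, with the number of tested members in parentheses and dashed lines at the shares over all 13190 tested genes (5.34% lower, 7.38% higher). The MS4A family has 5 of 10 higher and 0 lower, and the glycolysis list 29.6% lower; lists with few members have coarse shares.

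The 24 h arrays were also set against the 10 h arrays, to see what was still moving. Of 13190 genes, 285 differed (2.16%), 131 higher (0.993%) and 154 lower (1.17%), and without 24 h replicate 1 the count was 145. F13a1 rose by a further 2.41 ± 0.13 log2 (SE; adjusted p 6.52e-12), from 7.80 ± 0.18 at 10 h to 10.21 ± 0.16 (SD, n = 3). Saa3 rose by 1.86 ± 0.11, Cbr2 by 1.54 ± 0.15, Cd55 by 1.46 ± 0.26, Fpr2 by 1.42 ± 0.22 and Marco by 1.21 ± 0.12. Cbr2 read 7.62, 7.76 and 8.06 at 10 h and 9.35, 9.15 and 9.56 at 24 h, so the 24 h arrays were all higher. In the other direction Mmp12 changed by -1.72 ± 0.12, Cdkn1c by -1.49 ± 0.21, Serpinb9b by -1.27 ± 0.16 and Cry1 by -1.77 ± 0.08. Mmp12 read 11.16, 11.12 and 10.77 at 10 h and 9.02, 9.69 and 9.20 at 24 h. Fgf13, an intracellular fibroblast growth factor, changed by -1.44 ± 0.18 and Nptx1, a neuronal pentraxin gene, by -1.41 ± 0.34; a further Nptx1 probe set moved the other way against baseline. Fkbp5 changed by -0.26 ± 0.07 (adjusted p 0.0481), close to the threshold. Klf9, Tsc22d3, Per1, Mertk and Ddit4 were not called in this step, with values of 0.03 ± 0.07, -0.20 ± 0.06, -0.10 ± 0.10, -0.02 ± 0.09 and -0.36 ± 0.19. The changes from baseline to 10 h and to 24 h share the baseline arrays, so their likeness is not independent: F13a1 stood at 3.03 and 5.44 log2, Hp at 3.57 and 4.60, Sult1a1 at 4.13 and 4.09, Lifr at 3.61 and 3.65, Mmp12 at -0.66 and -2.38 and Dio2 at -2.91 and -2.70.

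**Figure D5:**
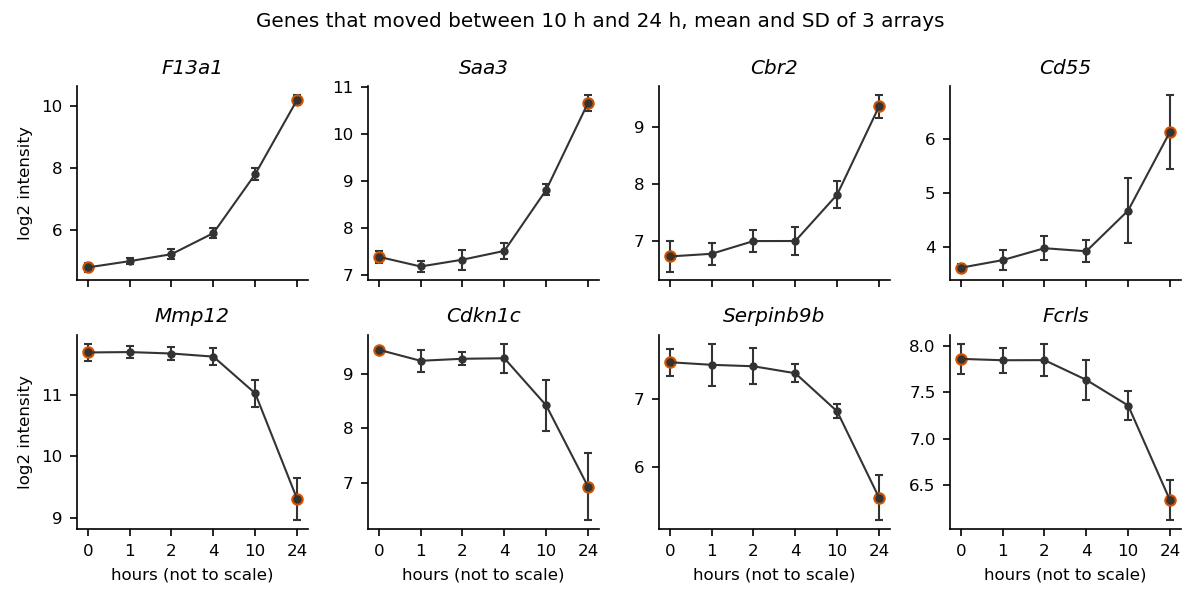
Mean log2 intensity and SD of 3 arrays (vertical axis) of 8 genes at baseline and after 1, 2, 4, 10 and 24 h (horizontal axis, evenly spaced), with baseline and 24 h ringed in orange. The upper 4 genes rise and the lower 4 fall further between 10 h and 24 h, for example F13a1 by 2.41 and Mmp12 by -1.72 log2.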

How the data were processed

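RNA of 18 macrophage cultures was measured on Affymetrix arrays, and 6 arrays are compared here. The authors used RMA (affy), per the submitters' processing notes, versions not given in the sources used here, and deposited linear-scale intensity values, so differences between arrays of a group that RMA removes cannot be seen. Of 45141 probe sets, 28898 had 1 gene symbol, 551 several, 15588 none and 104 were controls; the brightest probe set of each of 17097 genes was kept, after leaving out the stepped run of 211. Log2 values were filtered to genes at or above the array's 40th percentile on at least 3 arrays (13190 genes). limma 3.58.1 in R 4.3.3 fitted all 18 arrays with 1 mean per group and an intensity trend, with Benjamini-Hochberg adjustment and a threshold of 0.05, and was tested on simulated data. Background, 3.86 log2, is the 95th percentile of 43 control probe sets; a fold from below it is a bound against it. The number of arrays limits precision. Genes named are the 15 largest non-overlapping changes each way, the largest changes of each list, and others said to be named after their values were seen. The members and 41 lists were chosen with earlier results of these data known. Alternatives changed the probe set, filter, normalization, model and arrays. No batch is recorded.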

Additional observations from a re-analysis of the deposited data

Results flagged for a closer look

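Some genes stood on opposite sides of baseline at 10 h and at 24 h, and the difference between the 2 times passed limma's test. Both times share the baseline arrays. Cry1 was 1.26 log2 above baseline at 10 h and -0.51 at 24 h, a difference of -1.77 (adjusted p 1.16e-12). For the clock genes Per2, Tef and Cry2 the difference was -1.08, -0.94 and -0.80 (adjusted p 0.00015, 1.04e-07 and 0.00975), and Per2 was below background at baseline and at 24 h. Fgf13 differed by -1.44, Nptx1 by -1.41, Egr1 by -1.17 and Ephx1 by -0.69 (adjusted p 2.84e-05, 0.0241, 0.0281 and 1.77e-05). Against baseline at 24 h, Per2, Cry2 and Nptx1 were not called. Gclm and Anxa2 differed by only -0.23 and -0.14 (adjusted p 0.0261 and 0.0398), with 10 h values of 0.04 and 0.02 above baseline. In the other direction, the chemokine gene Ccl12 differed by 0.88, the lectin gene Clec4n by 0.64 and the metal transporter gene Slc39a8 by 0.34 (adjusted p 0.00606, 0.0046 and 0.0227); the call of Ccl12 against baseline at 24 h was lost in 10 of 19 settings. The cause was not tested.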

How the results depend on the processing

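Of 269 called genes named or listed by name, 192 kept direction and call in all 19 alternative settings, 77 lost the call in at least 1, and 4 of these reversed. With a size of at least 1 log2, 136 genes were called at 24 h, 101 higher and 35 lower. Without 1 array at a time the 1678 calls ranged from 1249 to 1631, 713 to 968 higher and 533 to 663 lower. Normalizing by quantiles again gave 782 higher and 814 lower, 49.0% of calls higher against 58.0%, with the median of all genes at -0.01. The 285 calls from 10 h to 24 h became 547 with a replicate block, 176 with only the 6 arrays compared, 124 without the intensity trend, 172 with the most variable probe set and 19 of at least 1 log2, and ranged from 145 to 258 without 1 array. The replicate number as a block gave 2250 genes at 24 h (1271 higher, 979 lower), 1674 of them shared. It moved list counts by over 1.5 times: falls of sterol genes from 0 to 7, interferon genes 5 to 9, ER stress 5 to 9, lineage factors 1 to 4, osteoclast genes 2 to 4 and acute phase genes 1 to 2, rises of ER stress genes from 3 to 6, cell cycle 4 to 7, immediate-early 4 to 7, lysosome 5 to 9, chemokines 3 to 5 and interferon genes 1 to 2, and mitosis from 0 to 1 each way. Same-numbered baseline and 24 h arrays correlated at 0.03, 0.14 and 0.18 in their deviations, each best with its own number. For baseline replicate 1 the lead was small, as it reached 0.01 with 24 h replicate 2. Against the 10 h arrays, baseline replicates 1 and 3 were best with their own number (0.03 and 0.16). Baseline replicate 2 was not (0.03, against 0.08 with 10 h replicate 1). This is a mixed hint from the data and not from the design. Without the intensity trend, falls went from 8 to 5 for Nrf2 genes, 4 to 2 for haem genes and 5 to 1 for interferon genes; with the most variable probe set, rises went from 6 to 3 for cytokine receptors and 3 to 1 for ER stress. The most variable probe set turned the sign of Itgav (0.30), Tgm2 (0.15), Nfatc1 (-0.21), Cycs (0.070), Nr3c1 (0.26), Rora (-0.068) and Csnk1d (0.17), and the mean of all probe sets that of Nfatc1 (-0.045), Hlf (0.0023), Bhlhe41 (-0.060) and Csnk1d (0.036). Rora was -0.025 after quantile normalization, and without 1 array at a time Hlf ranged from -0.26 to 0.056 and Mki67 from -0.044 to 0.11. The cause was not tested. Of the tested genes, 3361 were at or below background in both groups, where changes are poorly measured.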

Other observations

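Genes outside the lists, chosen after their values were seen, also changed at 24 h. Chil4, a chitinase-like relative of Chil3 whose probe sets may read both, rose by 1.98 ± 0.20 log2 (SE), and Lyve1, a hyaluronan receptor of some resident macrophages, rose by 1.67 ± 0.16. The secreted lectin gene Fcna rose by 1.07 ± 0.09, the gap junction gene Gja1 by 1.16 ± 0.14 and the matrix proteoglycan gene Vcan by 1.19 ± 0.14. The laminin chain gene Lama3 rose by 1.74 ± 0.18, Adgrg6, an adhesion G protein-coupled receptor gene, by 1.67 ± 0.13 and the guanine deaminase gene Gda by 1.72 ± 0.10. Nrg4, a growth factor of the neuregulin family, rose from below background, by at least 2.46-fold.

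Among falls chosen the same way, Kit, the stem cell factor receptor, read 6.26, 6.26 and 6.27 at baseline and 4.74, 4.75 and 5.33 at 24 h and fell by 1.32 ± 0.16. Cd72, an inhibitory receptor best known on B cells, fell by 1.29 ± 0.08, and Lat, an adaptor of antigen receptor signalling, fell by 1.24 ± 0.17. Stap1, a further signalling adaptor gene, fell by 1.14 ± 0.10. Beside these, 9 of 11 T and NK cell markers, 6 of 9 B cell markers and 7 of 8 mast cell markers were at background, and the part of other cells was not tested.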
